A study of Mus musculus with 4 samples.

Results

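Genes of the Notch pathway were compared between E16.5 lungs that had or lacked STK11 in the epithelium. The 10 genes were chosen by symbol: the ligand genes Jag1, Jag2 and Dll1, the receptor genes Notch1, Notch2 and Notch3, and Hes1, Hey1, Hes6 and Nrarp, which act in the nucleus in response to Notch or limit it. All 10 were among the 22556 genes of the deposited expression table. Total RNA of whole lungs was sequenced in 2 Control libraries (Shh-Cre; Stk11 F/+) and 2 Shh-Stk11 libraries (Shh-Cre; Stk11 F/F), all at embryonic day 16.5. The number of embryos per library is not given in the study's methods. Both genotypes carried the Cre driver, and Controls were heterozygous for the floxed Stk11 allele rather than wild type. The Shh-Cre driver is active in foregut endoderm, from which the epithelium of the lung derives, so the other cell types kept Stk11 and were sequenced together with it. C57BL/6 is the strain in the labels, and mixed backgrounds are given in the study's methods.

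Notch signaling passes between touching cells. A ligand of the JAG or DLL family on one cell binds a NOTCH receptor on its neighbor, the receptor is cut, and its intracellular part enters the nucleus, where it joins RBPJ and switches on target genes such as Hes1, Hey1 and Nrarp. In the airway epithelium, active Notch favors secretory cells and low Notch favors ciliated cells. Notch genes are also used by the endothelium and by the mural cells around blood vessels, so their level in a whole lung sums over many cell types.

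Values are FPKM, a measure of reads relative to the length of the transcript and the size of the library, and are given for Control 1, Control 2, Shh-Stk11 1 and Shh-Stk11 2. The low values of the table corresponded to 30.9 to 38.1 M reads per library (M, 1e6 reads). The deleted gene Stk11 averaged 44.7 ± 1.07 FPKM in the Controls, against 27.7 ± 2.49 FPKM after deletion (SD, n = 2), with a log2 fold change of -0.69 and a limma adjusted p of 0.0499, just inside the threshold. The call on Stk11 was lost in 12 of 15 alternatives, with the same direction in each. Shh-Stk11 2 had 23.5 FPKM of the Y-linked Ddx3y, which did not exceed 0.0285 FPKM elsewhere, so the genotypes were not matched for sex.

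None of the 10 Notch genes passed the threshold of an adjusted p of 0.05 in limma, against 2.27% of the 13770 genes tested (0.98% higher and 1.29% lower in Shh-Stk11 lungs). At an unadjusted p under 0.05 there were 2 of the 10, Jag2 and Nrarp, against 15.2% of all genes tested, and both were lower in Shh-Stk11 lungs. The median log2 fold change of the 10 was -0.099, beside -0.048 for all genes tested, with 4 genes above 0 and 6 below. Among all 13770 genes tested, 5737 were above 0 and 8033 below. The 10 values lay between -0.51 and 0.29. The 95% intervals of the 10 differences lay between -0.87 and 0.67, so that a change of 1 on the log2 scale was outside each of them, measured over the whole lung. A change in epithelial cells alone is diluted in such libraries, and fewer cells of a type cannot be told apart from less RNA per cell.

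**Figure D1:**
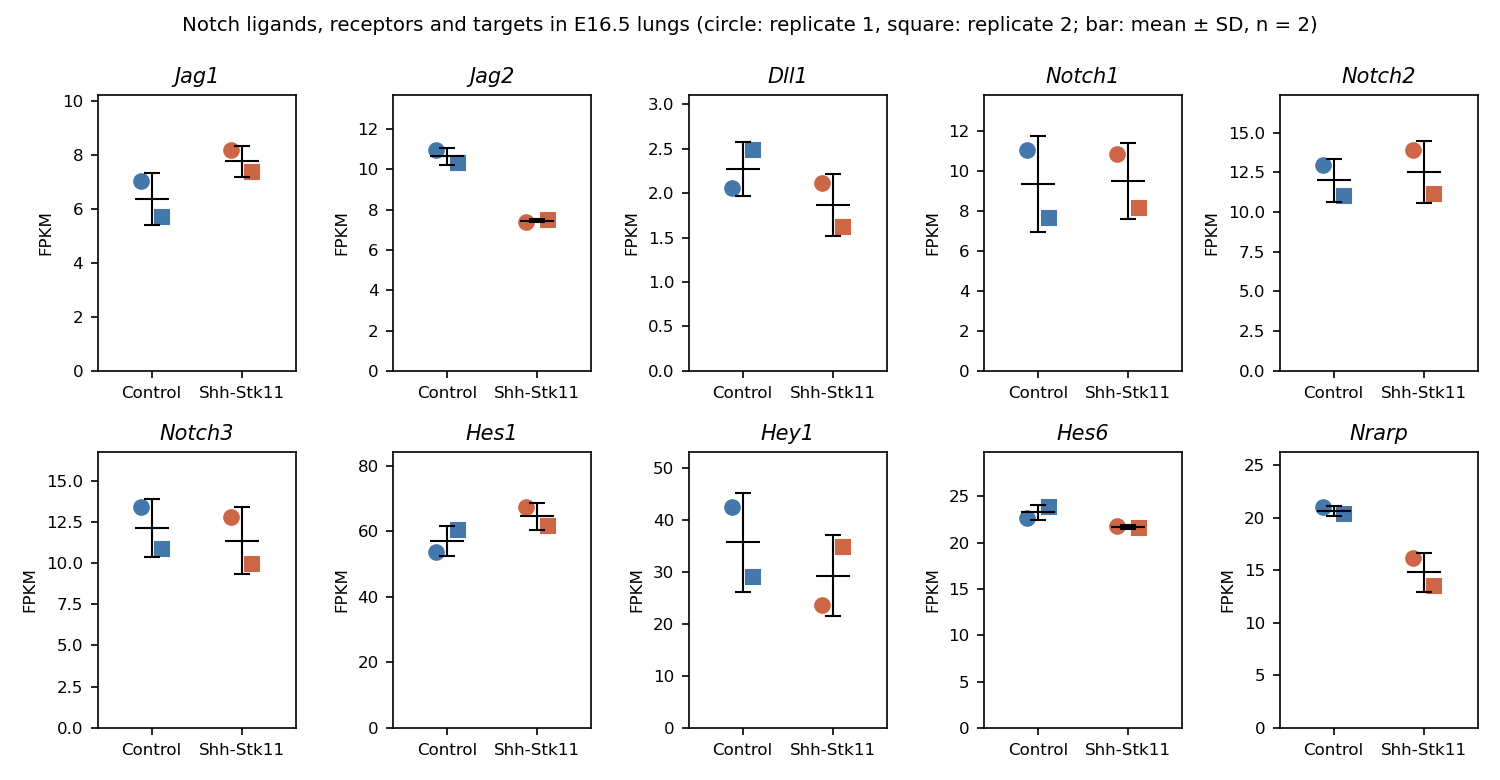
FPKM of the 10 Notch genes in each library, on a linear axis from 0, with Control in blue, Shh-Stk11 in orange, circles for replicate 1, squares for replicate 2, and a black bar for the mean with the SD of 2 libraries. Both Shh-Stk11 libraries lie below both Controls for Jag2, Hes6 and Nrarp and above both for Jag1 and Hes1, and the genotypes overlap for the other 5 genes.

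Of the ligand genes, Jag2 had the smallest p. Jag2, which encodes a transmembrane ligand of the JAG family, was at 10.9 and 10.3 FPKM in the Controls, against 7.39 and 7.50 FPKM in the Shh-Stk11 libraries. The replicates of each genotype lay close together and the genotypes did not overlap. Jag2 thus averaged 10.6 ± 0.438 FPKM in the Controls, against 7.45 ± 0.0835 FPKM after deletion (SD, n = 2), a ratio of 0.70. Its log2 fold change was -0.51 (SE 0.126, 95% interval -0.81 to -0.21), with an unadjusted p of 0.00578 and an adjusted p of 0.108 in limma. This was the smallest p among the 10 genes, and 735th among all genes tested.

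Jag1, the other gene of the JAG family and a ligand that ciliated cells of the airways are known to carry, did not pass the threshold either. It was at 7.05 and 5.69 FPKM in the Controls, against 8.18 and 7.36 FPKM in the Shh-Stk11 libraries. Both Shh-Stk11 libraries exceeded both Controls, but each exceeded Control 1 by less than the Controls differed from each other. The log2 fold change of 0.29 (SE 0.159, 95% interval -0.09 to 0.67) was short of the threshold (limma adjusted p 0.465).

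The level of Jag1 can be set beside the 10 multiciliated cell genes examined, since Jag1 was not lower when they were. The summed level of these genes was 90.96 and 102 FPKM in the Controls and 36.6 and 31.8 FPKM in the Shh-Stk11 libraries. Of the 9 that were tested, 6 were past the threshold and lower, and none was higher. Of these 6, Ccno, named after its values were seen, did not pass once a trend with transcript length and GC content was removed (limma adjusted p 0.0563). Foxj1, which drives the formation of motile cilia, fell (log2 fold change -1.71, limma adjusted p 0.00329) from a mean of 15.8 ± 0.522 FPKM in the Controls to 4.74 ± 0.0357 FPKM (SD, n = 2). The part of these cells in the level of Jag1 was not tested.

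Dll1, a ligand of the DLL family, was the lowest of the 10 genes. It was at 2.06 and 2.48 FPKM in the Controls, against 2.11 and 1.62 FPKM in the Shh-Stk11 libraries, or between 182 and 265 estimated reads per library. Shh-Stk11 1 lay between the Controls, and the log2 fold change was -0.28 (95% interval -0.81 to 0.25, limma adjusted p 0.612). The replicates differed by 0.26 in Control and 0.36 in Shh-Stk11 lungs on the log2 scale. Counting error alone gave the genotype difference a standard error of 0.0957, less than its fitted SE of 0.22.

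The receptor genes were nearly equal in the genotypes. Notch1 was at 11.1 and 7.65 FPKM in the Controls, against 10.9 and 8.17 FPKM in the Shh-Stk11 libraries. Its replicates differed by 0.53 and 0.41 on the log2 scale, far more than its log2 fold change of 0.035 (95% interval -0.50 to 0.57, limma adjusted p 0.959).

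Notch2, a receptor gene at a level near that of Notch3, was at 12.9 and 11.03 FPKM in the Controls, against 13.9 and 11.1 FPKM in the Shh-Stk11 libraries. The difference was 0.056 on the log2 scale (95% interval -0.33 to 0.44, limma adjusted p 0.905), and the genotypes overlapped.

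Notch3, which is known from the mural cells of blood vessels, was at 13.4 and 10.9 FPKM in the Controls, against 12.8 and 9.92 FPKM in the Shh-Stk11 libraries. The difference was -0.098 on the log2 scale (95% interval -0.52 to 0.33, limma adjusted p 0.838). The summed level of 8 pericyte and smooth muscle genes was 476 and 527 FPKM in the Controls and 458 and 529 FPKM in the Shh-Stk11 libraries, and none of the 8 passed the threshold. Most of this sum was the smooth muscle gene Acta2, named after its values were seen (282 and 321 FPKM in the Controls, 280 and 323 FPKM in the Shh-Stk11 libraries). In each genotype, replicate 1 had the higher value for all 3 receptor genes. The signs of their fold changes were not stable. Notch1 and Notch2 turned negative, at -0.14 each, once the trend with transcript length and GC content was removed, and Notch3 turned positive, at 0.051 without Control 1 and at 0.083 without Shh-Stk11 2.

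**Figure D2:**
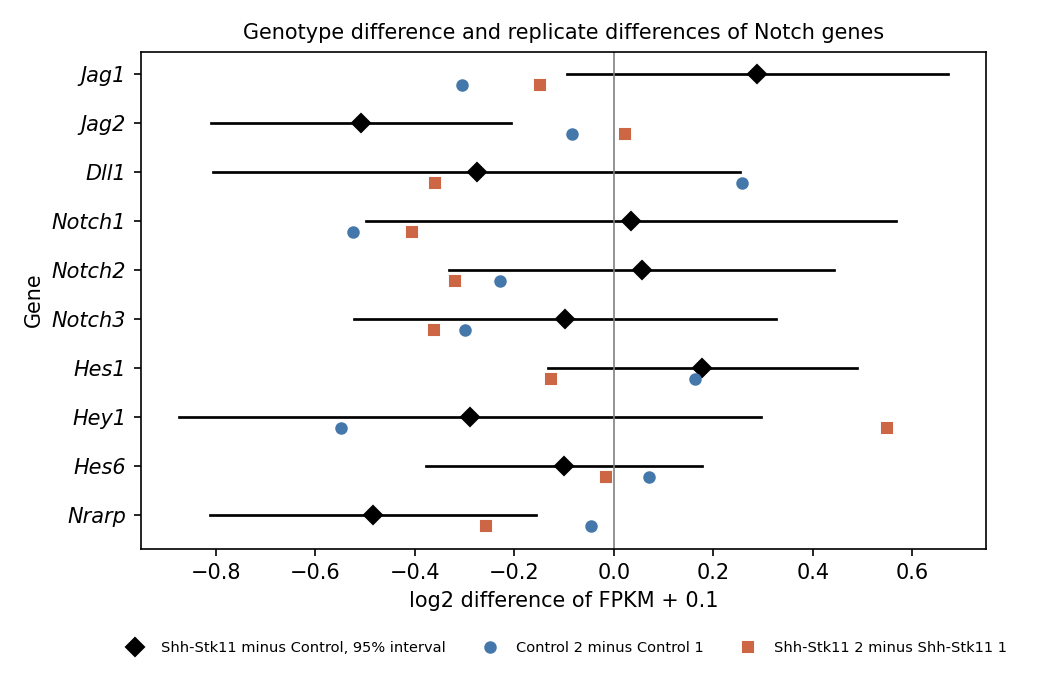
Log2 difference of FPKM + 0.1 for each gene: the black diamond is Shh-Stk11 minus Control with its 95% interval, the blue circle is Control 2 minus Control 1 and the orange square is Shh-Stk11 2 minus Shh-Stk11 1. The intervals of Jag2 (-0.81 to -0.21) and Nrarp (-0.81 to -0.16) lie below 0, whereas those of the other 8 genes contain 0, and for Notch1, Notch2, Notch3 and Hey1 the replicates of each genotype differed by more than the genotypes.

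Among the target genes, Nrarp had the smallest p. It encodes a small ankyrin repeat protein that is induced by Notch and limits it in turn. Nrarp was at 21.0 and 20.4 FPKM in the Controls, against 16.1 and 13.5 FPKM in the Shh-Stk11 libraries. Both Shh-Stk11 libraries lay below both Controls, by more than the replicates of either genotype differed. The mean went from 20.7 ± 0.466 to 14.8 ± 1.87 FPKM (SD, n = 2), a ratio of 0.716. Its log2 fold change was -0.48 (SE 0.136, 95% interval -0.81 to -0.16), with an unadjusted p of 0.0105 and an adjusted p of 0.148 in limma.

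Hes1, which encodes a bHLH repressor and is a classical Notch target, was the most highly expressed of the 10 genes. It was at 53.8 and 60.3 FPKM in the Controls, against 67.4 and 61.7 FPKM in the Shh-Stk11 libraries. The genotypes did not overlap, but Control 2 and Shh-Stk11 2 lay close to each other. The difference was 0.18 on the log2 scale (SE 0.129, 95% interval -0.13 to 0.49, limma adjusted p 0.576).

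Hey1, a related bHLH repressor that is also used by the arterial endothelium, varied most among replicates. It was at 42.4 and 29.0 FPKM in the Controls, against 23.7 and 34.7 FPKM in the Shh-Stk11 libraries. The replicates of each genotype differed by 0.55 on the log2 scale, and Shh-Stk11 2 lay between the Controls. The log2 fold change of -0.29 (95% interval -0.87 to 0.30, limma adjusted p 0.632) was set by single libraries: it was -0.014 without Control 1 or without Shh-Stk11 1, and -0.56 without Control 2 or without Shh-Stk11 2.

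Hes6, a member of the HES family that counteracts HES1, varied little, with replicates 0.070 apart in Control and 0.015 apart in Shh-Stk11 lungs on the log2 scale. It was at 22.7 and 23.8 FPKM in the Controls, against 21.8 and 21.6 FPKM in the Shh-Stk11 libraries. The genotypes did not overlap, yet the difference was small, with a log2 fold change of -0.0999 (95% interval -0.38 to 0.18, limma adjusted p 0.732). With the trend in length and GC content removed it was 0.077.

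The 10 genes could also be ordered by level, since FPKM is scaled to length. Over the 4 libraries Hes1 averaged 60.8 FPKM, followed by Hey1 (32.5), Hes6 (22.5), Nrarp (17.8), Notch2 (12.2), Notch3 (11.7), Notch1 (9.43), Jag2 (9.04), Jag1 (7.07) and Dll1 (2.07). Only 3 steps of this order separated the libraries completely, namely Hes1 above Hey1, Hes6 above Nrarp, and Jag1 above Dll1. All other neighbors in the order overlapped. In all 4 libraries the 4 nuclear or feedback genes were above all receptor and ligand genes among the 10.

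For 5 of the 10 genes the libraries of the genotypes did not overlap, 2 of them higher and 3 lower in Shh-Stk11 lungs. This was the case for 46.8% of all genes tested, so the share among the Notch genes was near the background.

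Fold changes in these libraries followed transcript length. Over 10 groups of genes ordered by length, the median log2 fold change went from -0.19 in the group with the shortest to 0.19 in the group with the longest transcripts. The receptor genes have long transcripts, from 8016 bases for Notch3 to 10500 bases for Notch2, and their fold changes lay below the median of 0.19 of the group they fell in. Jag1 (5612 bases) and Jag2 (5106 bases) are close in length, and their groups had medians of 0.059 and 0.0079. Hes1 (1468 bases) and Hes6 (1573 bases) fell in a group with a median of -0.15. With the trend removed, the log2 fold change was -0.48 for Jag2, -0.36 for Nrarp, 0.30 for Hes1 and 0.20 for Jag1, with limma adjusted p of 0.174, 0.278, 0.367 and 0.513.

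**Figure D3:**
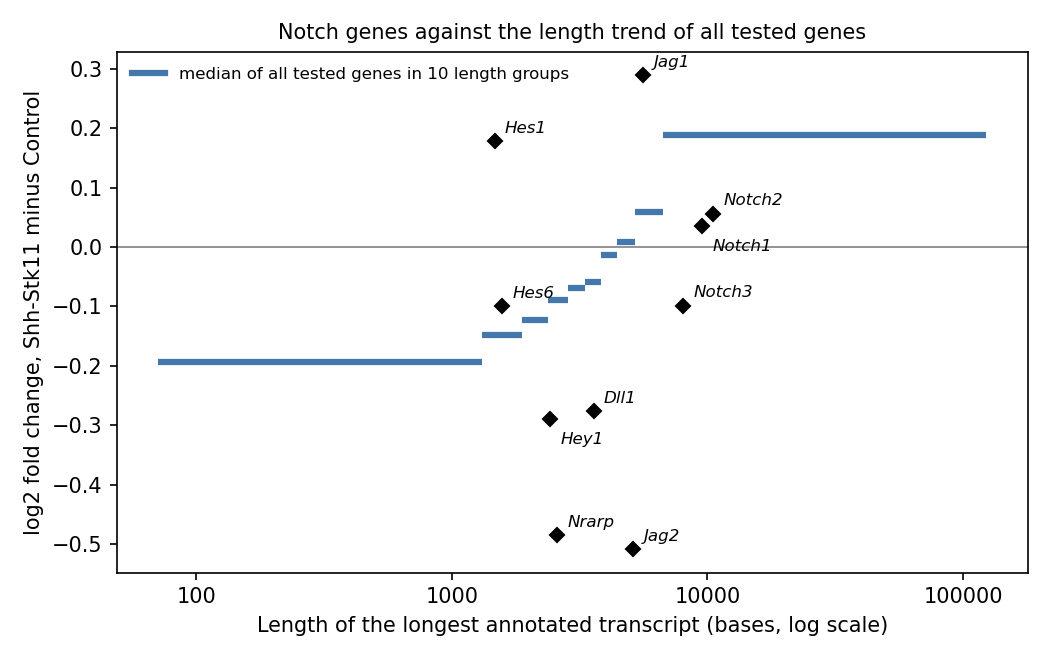
Log2 fold change (Shh-Stk11 minus Control) of the 10 Notch genes (black diamonds) against the length of the longest annotated transcript on a log axis, with the median of all tested genes in 10 length groups as blue bars. The bars climb from -0.19 to 0.19. Jag1 (0.29), Hes1 (0.18) and Hes6 (-0.0999) lie above the bar at their own length. The other genes lie below theirs, Jag2 (-0.51) and Nrarp (-0.48) by the most.

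Sequence before the transcription start was looked at for the letters that RBPJ is known to prefer, TGGGAA and TGAGAA, and for the E-box CACGTG, to which HEY proteins can bind. RefSeq (GRCm38.p6) gave 10 such windows of 250 bases for 8 of the 10 genes, all except Hes1 and Hey1. On either strand, TGGGAA was in 0 of the 10 windows, TGAGAA in 1 and CACGTG in 1. Among all 32851 windows of this length, TGGGAA was in 21.6%, TGAGAA in 17.2% and CACGTG in 6.02%. The windows that held one belonged to Jag1 and to Nrarp. They are shown because they held these letters, 5′ to 3′ on the strand of the gene and with the matched letters in capitals. A match of letters is not a site. The Nrarp window lies at chr2:25180508-25180757 on the plus strand, and the distal 120 bases of the Jag1 window at chr2:137116651-137116770 on the minus strand.
Nrarp: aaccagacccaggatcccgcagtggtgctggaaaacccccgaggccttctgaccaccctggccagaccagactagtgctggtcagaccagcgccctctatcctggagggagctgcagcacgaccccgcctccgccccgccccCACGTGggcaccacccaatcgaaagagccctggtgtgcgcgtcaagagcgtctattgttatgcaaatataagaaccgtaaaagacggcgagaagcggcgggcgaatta
Jag1: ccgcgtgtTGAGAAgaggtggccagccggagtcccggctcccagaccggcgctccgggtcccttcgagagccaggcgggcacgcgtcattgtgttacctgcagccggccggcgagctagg

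The rest of the pathway was then examined with 48 further genes listed by their known role, of which 41 were tested. None passed the threshold in limma. At an unadjusted p under 0.05 there were 5, or 3 lower (Dlk1, Dlk2 and Neurl1a) and 2 higher (Mib1 and Dtx4), against 7.18% lower and 8.04% higher of all genes tested. The median log2 fold change of the 41 was -0.11. Both Shh-Stk11 libraries lay below both Controls for 18 of them, against 27.6% of all genes tested, and above both for 6, against 19.2%.

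Of the 41 genes tested at the filter of 0.5 FPKM, the largest differences were among the other ligand genes. Dlk2, which encodes a noncanonical ligand without the domain that binds NOTCH in DLL and JAG proteins, was at 7.88 and 6.52 FPKM in the Controls, against 2.42 and 4.33 FPKM in the Shh-Stk11 libraries. Its log2 fold change was -1.12 (SE 0.276, limma adjusted p 0.107). Without Shh-Stk11 1 the difference was smaller, at -0.71 (limma adjusted p 0.272). Dlk2 passed the threshold without Shh-Stk11 2, at -1.53 (limma adjusted p 0.0389), and with replicate numbers crossed as a block (limma adjusted p 0.0196), but in none of the other 13 alternatives. Its paralog Dlk1, an imprinted gene of fetal tissues named after its values were seen, was at 141 and 143 FPKM in the Controls, against 97.5 and 74.9 FPKM in the Shh-Stk11 libraries (log2 fold change -0.73, limma adjusted p 0.0823). Both genes lay lower in each Shh-Stk11 library than in each Control.

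Dll4 and the receptor gene Notch4 are known from the endothelium. Dll4, also named after its values were seen, was at 12.3 and 11.5 FPKM in the Controls, against 9.80 and 10.6 FPKM in the Shh-Stk11 libraries (log2 fold change -0.22, limma adjusted p 0.472). Notch4 was at 6.12 and 5.56 FPKM in the Controls, against 5.18 and 4.32 FPKM in the Shh-Stk11 libraries (log2 fold change -0.30, limma adjusted p 0.449). Hey2, a repressor of the HEY family, had a log2 fold change of -0.21 (limma adjusted p 0.604). Single libraries moved both values: without Shh-Stk11 1, Notch4 was at -0.42 and Hey2 at -0.11, and without Shh-Stk11 2, Notch4 was at -0.17 and Hey2 at -0.31. All 8 endothelial genes examined had a fold change below 0, against 8033 of the 13770 genes tested. None of the 8 was past the threshold, and their median was -0.38. Their summed level was 769 and 661 FPKM in the Controls and 530 and 566 FPKM in the Shh-Stk11 libraries. The part of endothelial cells in the levels of Dll4, Notch4 and Hey2 was not tested.

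Ligands must be ubiquitinated and taken up by the cell that carries them in order to signal. None of the 6 genes of this step passed the threshold, and their median log2 fold change was -0.15. The ubiquitin ligase gene Neurl1a was at 1.82 and 1.77 FPKM in the Controls, against 1.27 and 0.998 FPKM in the Shh-Stk11 libraries (log2 fold change -0.63, limma adjusted p 0.255). Mib1, another ubiquitin ligase gene, named after its values were seen, was at 12.1 and 7.68 FPKM in the Controls, against 16.9 and 12.95 FPKM in the Shh-Stk11 libraries (log2 fold change 0.61, limma adjusted p 0.298). The Controls differed widely for Mib1, and Control 1 was close to Shh-Stk11 2. The difference in Mib1 was 0.29 without Control 2 and 0.94 without Control 1. Mib1 has a long transcript of 10231 bases, and its difference was 0.27 once the trend with length and GC content was removed.

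Of the genes that modify or cut the receptor, none of 5 in glycosylation and none of 9 in cleavage had an unadjusted p under 0.05 in limma, against 15.2% of all genes tested. Lfng, a fringe glycosyltransferase that changes which ligands a receptor answers to, had a log2 fold change of -0.26 (limma adjusted p 0.386). Psenen, a subunit of gamma-secretase, had one of -0.28 (limma adjusted p 0.459). These were the largest differences in their roles as fitted, but not once the trend with length and GC content was removed, when Lfng was at -0.12 and Psenen at -0.035. Psenen was at -0.0999 without Shh-Stk11 1 and at -0.46 without Shh-Stk11 2.

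In the nucleus, Rbpj itself, named after its values were seen, was at 11.5 and 13.4 FPKM in the Controls, against 14.4 and 11.1 FPKM in the Shh-Stk11 libraries (log2 fold change 0.026, limma adjusted p 0.959). Spen, a corepressor that acts with RBPJ, had the largest difference of the 8 genes of this role (0.21, limma adjusted p 0.715). Both lay well within the replicate spread, and both signs changed under some alternatives.

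Dtx4, a ubiquitin ligase of the deltex family that acts on Notch receptors, had the largest difference among the tested genes listed as negative regulators or for receptor turnover. It was at 14.0 and 12.1 FPKM in the Controls, against 19.6 and 19.1 FPKM in the Shh-Stk11 libraries. The genotypes were clearly apart, with a log2 fold change of 0.57 (SE 0.129), and its limma adjusted p of 0.0875 was short of the threshold.

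**Figure D4:**
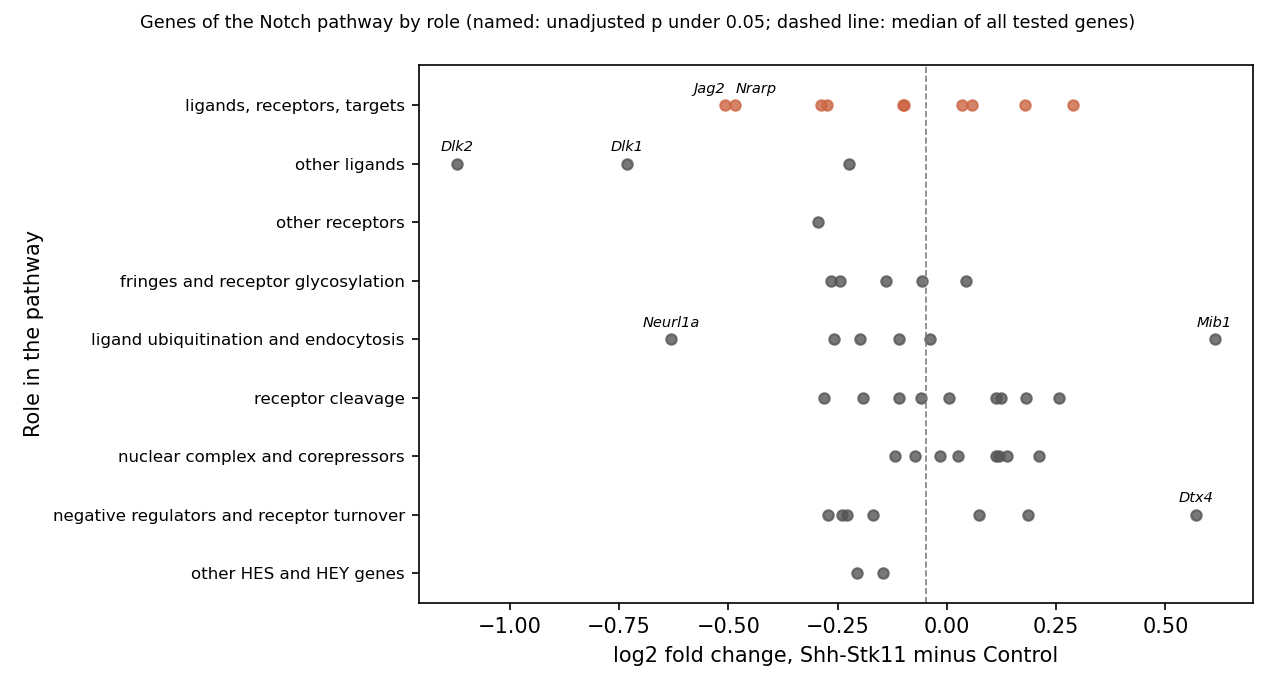
Log2 fold change (Shh-Stk11 minus Control) of the 10 Notch genes (orange) and the 41 further tested genes of the pathway (grey), 1 point per gene, in rows by role, with the median of all tested genes as a dashed line. The rows of receptor cleavage and of the nuclear complex and corepressors lie between -0.28 and 0.26. Dlk2 (-1.12) and Dlk1 (-0.73) lie farthest to the left. Mib1 (0.61, or 0.27 with the length and GC trend removed) and Dtx4 (0.57) lie farthest to the right.

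The 7 genes of the list that were under the filter of 0.5 FPKM included 4 HES genes. Hes3 and Hes5 were listed at 0 in every library. Hes2, named after its values were seen, was at 0.351 and 0.519 FPKM in the Controls, against 0.0839 and 0.0779 FPKM in the Shh-Stk11 libraries, which corresponded to 31 and 38 against 6 and 6 estimated reads. When the filter was lowered to 0.1 FPKM, its log2 fold change was -1.55 (SE 0.326) and its limma adjusted p 0.0812. The others were Hes7, Dll3, Dner and Dtx1, at or below 0.419 FPKM in every library.

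Other cell type genes give the setting of these values. For club and goblet cells 3 of 6 tested genes were past the threshold, each lower (1 of them, Upk3a, once the trend with length and GC content was removed), and the list had summed levels of 875 and 879 FPKM in the Controls and 681 and 742 FPKM in the Shh-Stk11 libraries. Scgb1a1, the main secretoglobin of club cells, named after its values were seen like the other genes of this paragraph, was at 221 and 102 FPKM in the Controls, against 312 and 471 FPKM in the Shh-Stk11 libraries (limma adjusted p 0.144). Scgb3a2, another secretoglobin, made up most of the sum in the Controls, at 552 and 679 FPKM, against 286 and 185 FPKM in the Shh-Stk11 libraries. The mucin genes of goblet cells, both under the filter and not tested, were higher in each Shh-Stk11 library than in each Control. Muc5b was at 0.0178 and 0.0364 FPKM in the Controls, against 0.737 and 0.285 FPKM in the Shh-Stk11 libraries, which corresponded to 10 and 17 against 336 and 140 estimated reads. Of 4 tested neuroendocrine genes none passed, with a median log2 fold change of 0.40. Calca, which encodes the peptide CGRP of these cells, came closest (1.11, limma adjusted p 0.0532), at 6.09 and 9.22 FPKM in the Controls, against 17.2 and 15.5 FPKM in the Shh-Stk11 libraries. None of 8 genes of the lung epithelium, 8 of the mesenchyme and 4 of immune cells passed either, with median log2 fold changes of 0.18, -0.30 and 0.20. Of the basal cell genes 1 was tested, Krt15, and it was lower (-0.93, limma adjusted p 0.0227), while Trp63, which defines these cells, stayed at or below 0.17 FPKM. Of 5 tested red blood cell genes 1 passed, Hba-x, and it was lower (-1.49).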

How the data were processed

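Whole lungs were profiled by RNA sequencing with single-end 50-base reads. The deposited file, as the authors made it, gives gene-level FPKM for each library. The submitters' processing notes name TopHat2 2.0.13, Cufflinks 2.2.1 and the builds GRCm38 and mm9, without roles. Scaling between libraries is not given in the sources used here. Genes averaging 0.5 FPKM or more were tested on log2(FPKM + 0.1) in R 4.3.3 with limma 3.58.1 (lmFit, then eBayes with a trend), two-sided, with genotype as the only term and Benjamini-Hochberg adjustment over all 13770 genes tested, at a threshold of 0.05. Fold changes on this scale understate the change of low genes. With 2 libraries on each side the smallest p of an exact permutation test is 0.333, so each p rests on variance borrowed across genes. Nothing in the labels tells separate litters apart. The script was tested on simulated data.

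Read numbers were estimated from low values that were whole multiples of a step, within 0.02 steps (76.2% of 1721 genes), and from transcript lengths in GENCODE M21. Lengths and GC content are those of the longest transcript, for 13631 of the tested genes, matched by symbol or RefSeq synonym. The list entry Hbb-bt had no match. Read numbers cover counting error only. Genes, lists and roles were chosen with earlier results of these data known. Beside the 10 Notch genes, the text names the gene with the largest difference in each role, and other genes where it says so. Marker genes are named where their level stands beside that of a Notch gene, or after their values were seen, as in the paragraph on other cell types. Alternatives covered pseudocounts, filters, scaling, variance moderation, a replicate block, leaving out each library and, chosen after seeing the data, a block with the replicate numbers crossed and removal of the length and GC trend with natural splines.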

Additional observations from a re-analysis of the deposited data

How the results depend on the processing

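None of the 10 Notch genes passed the threshold in any of 15 alternatives. Jag2 stayed between -0.55 and -0.46 on the log2 scale (limma adjusted p 0.0841 to 0.405) and Nrarp between -0.61 and -0.36 (0.119 to 0.465). Leaving out 1 library each, Jag1 ranged from 0.14 (without Control 2) to 0.44 (without Control 1), Hes1 from 0.096 (without Control 1) to 0.26 (without Control 2), Dll1 from -0.46 (Shh-Stk11 1 left out) to -0.096 (Shh-Stk11 2 left out) and Hey1 from -0.56 to -0.014. The median of the 10 lay between -0.19 and 0.018. Dll1 was not tested at a minimum of 5 FPKM. Signs changed for genes near 0. Leaving out 1 library each, Notch1 ranged from -0.23 to 0.30, Notch2 from -0.10 to 0.22, Notch3 from -0.28 to 0.083, Rbpj from -0.16 to 0.21 and Spen from -0.073 to 0.50. With the length and GC trend removed, Notch1 was at -0.14, Notch2 at -0.14, Hes6 at 0.077, Rbpj at -0.16 and Spen at -0.0040.

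Of the 41 further pathway genes, 0 to 1 passed when libraries were left out (1, Dlk2, without Shh-Stk11 2). The 313 genes past the threshold overall became 200 at a minimum of 5 FPKM, 1 without a filter, 195 with the trend removed and 38 to 191 with 1 library left out. Leaving out libraries gave 49 without Control 1, 38 without Control 2, 169 without Shh-Stk11 1 and 191 without Shh-Stk11 2. With replicate number as a block there were 13, and with the numbers crossed (Control 1 with Shh-Stk11 2, added after seeing the data) there were 675, with 0 of the 10 Notch genes and 1 of the 41. The labels give no shared litter for equal numbers, and deviations of same-numbered libraries had a correlation of -0.114 across genes. Stk11 was no longer past the threshold with a pseudocount of 1 (-0.67), a minimum of 0.1 FPKM (-0.69), no filter (-0.69), quantile normalization (-0.62), median-ratio scaling (-0.65), eBayes without the trend (-0.69), the replicate block (-0.69), the trend removed (-0.59) or 1 library left out (-0.78 to -0.60). The cause of these changes was not tested.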

Other observations

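Ratios between 2 genes of the same library do not depend on how libraries were scaled. They were chosen after the values were seen and are given as a description. The ratio of Jag1 to Jag2 was 0.645 in Control 1 and 0.551 in Control 2, and 1.11 in Shh-Stk11 1 and 0.981 in Shh-Stk11 2. Jag2 was thus the more abundant JAG transcript in both Controls, and the transcripts were nearly equal in both Shh-Stk11 libraries. The mean ratio was 0.598 ± 0.0663 in Control and 1.04 ± 0.089 in Shh-Stk11 lungs (SD, n = 2). The ratio of the target gene Hes1 to the feedback gene Nrarp was 2.56 and 2.96 in the Controls and 4.17 and 4.57 in the Shh-Stk11 libraries, with means of 2.76 ± 0.283 and 4.37 ± 0.28 (SD, n = 2).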
